A study of Mus musculus with 9 samples.

Results

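The genes described here are 27 genes of cholesterol synthesis and its sterol control, measured in mouse liver. They were chosen by symbol, as genes of known roles, from a list drawn up with earlier results of these data known. The list held 18 enzymes between acetyl-CoA and cholesterol and the sterol carriers Stard4 and Npc1. It also held Srebf2, its sterol control genes Scap, Insig1 and Insig2, and the liver X receptors Nr1h2 and Nr1h3 with their target Mylip. All 27 were on the array and all 27 were among the 16796 genes tested. RNA came from liver of male C57BL/6 mice aged 3 months, hybridised to 9 single-colour Agilent arrays, 3 for each of 3 groups. The untreated group was wild type and received no vector. The AAV-GFP group received adeno-associated virus (AAV) that encodes green fluorescent protein, the control for the vector itself. The AAV-hGRβ group received AAV that encodes human GRβ, the β form of the glucocorticoid receptor, a splice form that does not bind classical glucocorticoids and is known for opposing the hormone-binding α form. The promoter that drives the transgene, the vector dose and the time after injection are not given in the sources used here. The labels also do not say that the 3 replicates of a group are separate animals, so p-values measure only the spread between these samples, which may be technical.

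Liver makes cholesterol from acetyl-CoA through mevalonate, farnesyl diphosphate, squalene and lanosterol, and it supplies much of the cholesterol carried in blood. When membranes of the endoplasmic reticulum are poor in sterol, SCAP escorts the SREBP transcription factors to the Golgi, where they are cut and released to switch on these enzymes; when sterol is plentiful, the INSIG proteins hold SCAP back. The liver X receptors (LXR) sense oxidised sterols and switch on genes of sterol export and of fatty acid synthesis.

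Promoters of 4 members are shown because these genes carry the contrasts below: Hmgcs1 as the only member, among those with a promoter window, that held the textbook sterol response element, Lss as a gene that was lower with AAV-hGRβ, and the Insig1 and Insig2 pair, whose differences from untreated liver had opposite signs with AAV-hGRβ, neither of them called. Each is the 250 bases before a RefSeq transcript start on GRCm38.p6, written 5′ to 3′ on the gene's strand, with matches to the sterol response element letters TCACNCCAC and to the CCAAT box (ATTGG on the other strand) in capitals.
Hmgcs1 chr13:119690101-119690350 (plus strand): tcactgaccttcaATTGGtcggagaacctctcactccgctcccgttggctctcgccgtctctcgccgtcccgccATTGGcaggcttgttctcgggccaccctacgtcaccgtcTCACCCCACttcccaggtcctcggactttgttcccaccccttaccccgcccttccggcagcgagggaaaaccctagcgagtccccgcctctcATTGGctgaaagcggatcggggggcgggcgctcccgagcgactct
Lss chr10:76531355-76531604 (plus strand): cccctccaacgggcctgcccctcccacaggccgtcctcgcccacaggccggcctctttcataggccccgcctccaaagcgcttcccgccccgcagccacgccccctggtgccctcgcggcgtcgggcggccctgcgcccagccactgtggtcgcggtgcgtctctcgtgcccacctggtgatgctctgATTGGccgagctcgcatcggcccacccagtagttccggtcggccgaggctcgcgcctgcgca
Insig1 chr5:28071162-28071411 (plus strand): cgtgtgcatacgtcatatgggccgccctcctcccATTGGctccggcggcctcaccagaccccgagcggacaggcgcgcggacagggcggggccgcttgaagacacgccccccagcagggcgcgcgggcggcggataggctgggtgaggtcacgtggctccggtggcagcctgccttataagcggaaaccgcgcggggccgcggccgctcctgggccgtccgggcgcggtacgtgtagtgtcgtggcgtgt
Insig2 chr1:121332590-121332839 (minus strand): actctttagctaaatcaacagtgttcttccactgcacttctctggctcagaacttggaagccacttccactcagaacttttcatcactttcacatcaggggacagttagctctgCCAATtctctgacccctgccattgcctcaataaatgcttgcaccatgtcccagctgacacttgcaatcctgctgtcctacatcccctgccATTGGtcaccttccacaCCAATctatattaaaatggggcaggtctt
RefSeq windows were matched by symbol for 22 of the 27 members, with 29 windows among them. Both strands were searched, and the motifs did not overlap in the windows shown. Hmgcs1 held the sterol response element letters 137 bases before its start, and no other member did, against 1.22% of all genes with a window. Only exact matches were counted, so a variant of these letters in another member would be missed. A CCAAT box, the binding letters of the SREBP partner NF-Y, was in at least 1 window of 18 of 22 members, against 37.5% of all genes. The GGGCGG letters of Sp1 sites were in 19 of 22 members, against 35.4%, and the CACGTG E-box in 5 of 22, against 6.86%. Insig2 has 3 RefSeq windows, and the one shown was chosen after the search because it alone held CCAAT boxes, 3 of them. Which start site the liver transcripts used was not measured, and a match of letters is a description of the sequence only.

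Levels below are log2 intensities from which the 75th percentile of the same array was subtracted; a level of 0 is that percentile, and a difference of 1 is a change of 2-fold; no level of a gene is set against another gene's. Values are listed for untreated replicates 2, 3 and 4, then for AAV-GFP replicates 1, 2 and 3, then for AAV-hGRβ replicates 1, 2 and 3. Between 54.0% and 82.0% of the probes were well above background on an array, and the correlation across probes was 0.973 to 0.988 between arrays of 1 group and 0.950 to 0.989 between groups. The probe representing each of the 27 genes was well above background on all 9 arrays and saturated on none. Untreated replicate 2, AAV-GFP replicate 3 and AAV-hGRβ replicate 1 were scanned on a different day from the other 6 arrays, so each group had 1 array from the second day. Groups were compared with limma over all 9 arrays, and a gene was called at an adjusted p under 0.05 (Benjamini-Hochberg over all 16796 genes, two-sided).

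Most sterol genes stood lower in AAV-hGRβ liver than in AAV-GFP liver, by less than 2-fold each, and no single difference passed the test over all genes. The log2 difference, AAV-hGRβ minus AAV-GFP, was below 0 for 25 of the 27 genes, against 46.7% of all genes tested, and its median was -0.35, against 0.03 over all genes. It ran from -0.87 for Fdps, farnesyl diphosphate synthase, to 0.22 for Insig2. None of the 27 passed the test, where 0.0774% of all genes were called lower and 0.834% higher. At an unadjusted p under 0.05, 6 members were lower and none higher (Mvd, Fdps, Fdft1, Stard4, Scap and Insig1), against 3.33% of all genes lower and 8.41% higher. In 11 members all 3 AAV-hGRβ arrays lay below all 3 AAV-GFP arrays, against 6.35% of all genes, and in none did they lie above, against 9.59%. The direction depended on the background correction: with normexp correction of the raw spot intensities only 7 of 27 were below 0 and the median was 0.27, and with unusually bright local backgrounds replaced it was -0.32 with 25 below 0. In bulk liver, fewer cells of a type and less RNA per cell cannot be told apart.

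Against untreated liver, 3 sterol genes fell with AAV-hGRβ and none rose, in a comparison that carries the vector and the transgene together. These were Lss, which closes the sterol ring system as lanosterol synthase, Stard4, a cytosolic sterol carrier, and Scap, the sterol-sensing escort of SREBP; 0.792% of all genes were called lower and 2.59% higher in this comparison. Below 0 were 23 of 27 members, against 43.2% of all genes, with a median of -0.47 against 0.10. An unadjusted p under 0.05 was found for 14 lower members, against 10.9% of all genes, and for 2 higher ones, Insig2 and Nr1h3, against 14.7%. The 3 AAV-hGRβ arrays lay below all 3 untreated arrays in 15 members, against 14.5% of all genes, and above them in 1, Insig2, against 14.8%. Fdps had the largest difference of the 27, 2.57-fold lower (log2 difference -1.36, adjusted p = 0.0816), and was the only one beyond 2-fold. The 3 calls were lost with slide as a random block (adjusted p = 0.211 for Lss, 0.154 for Stard4 and 0.261 for Scap), under normexp correction, with no filter on dim probes and with only the 2 groups compared in the fit. None of the 27 was called without untreated replicate 3, untreated replicate 4, AAV-GFP replicate 2 or any single AAV-hGRβ array. Without untreated replicate 2, 7 were called, 6 lower and Insig2 higher. In that fit 687 of 16796 genes were called lower and 1463 higher.

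The control vector alone had no called sterol gene. In AAV-GFP against untreated liver, limma called no gene at all; 1659 genes, 9.88% of those tested, had an unadjusted p under 0.05. Among the members 17 of 27 were below 0, against 46.7% of all genes, and the median was -0.11 against 0.04; without untreated replicate 3 it was 0.03. Lss and Nsdhl, 2 of 27, were lower at an unadjusted p under 0.05, against 5.21% of all genes, and none was higher, against 4.67%. The groups did not overlap in 5 members, all lower with AAV-GFP (Lss, Nsdhl, Hsd17b7, Srebf2 and Scap), against 9.10% of all genes lower and 5.76% higher. The 3 comparisons reuse the same 9 arrays, so they are not independent of each other, and their values are given side by side below.

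**Figure D1:**
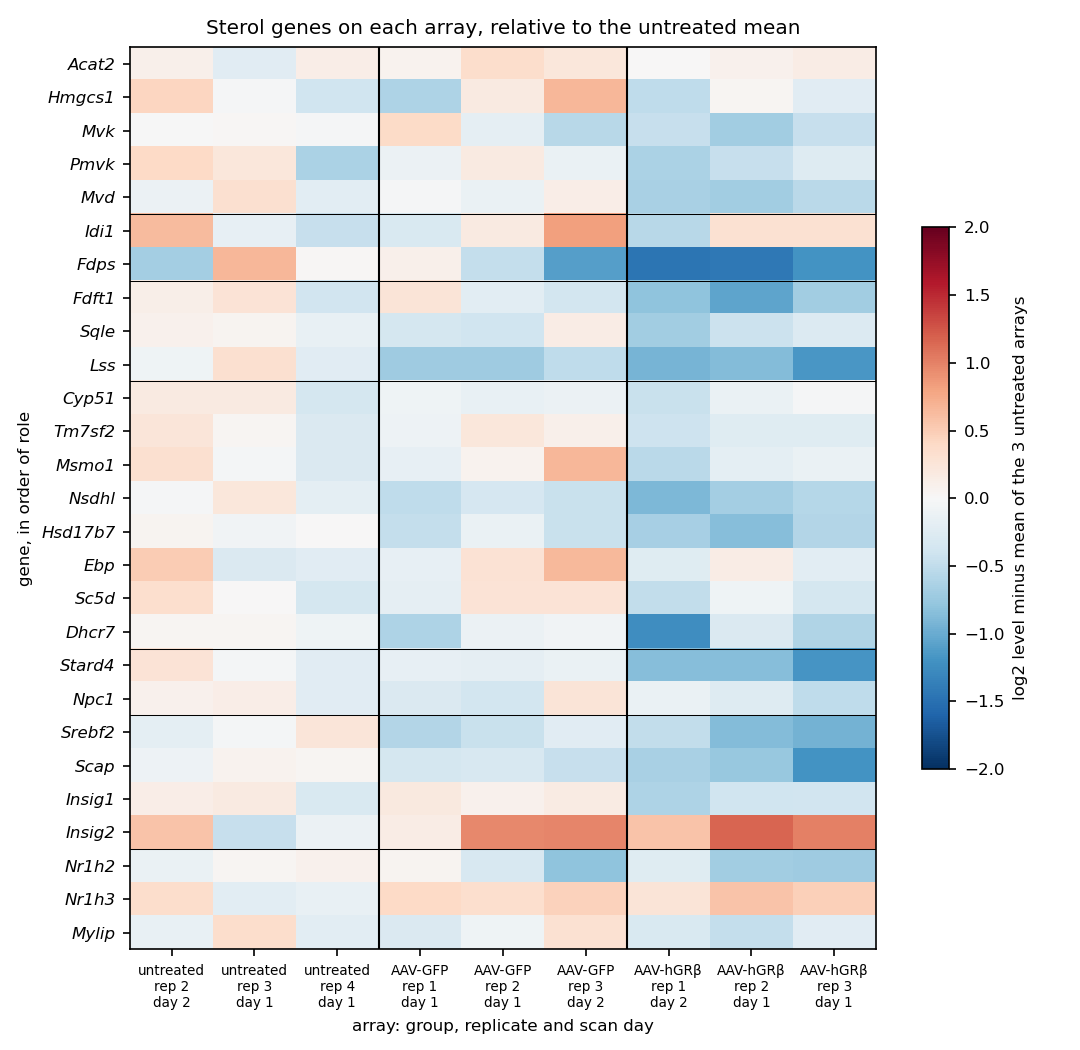
Log2 level of each of the 27 genes (rows, in order of role) on each of the 9 arrays (columns), minus the mean of the 3 untreated arrays; blue is lower and red is higher, and horizontal lines part the roles. The AAV-hGRβ columns are mostly blue, with Fdps the darkest row, while Insig2 and Nr1h3 are red on all 3 AAV-hGRβ arrays.

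**Figure D2:**
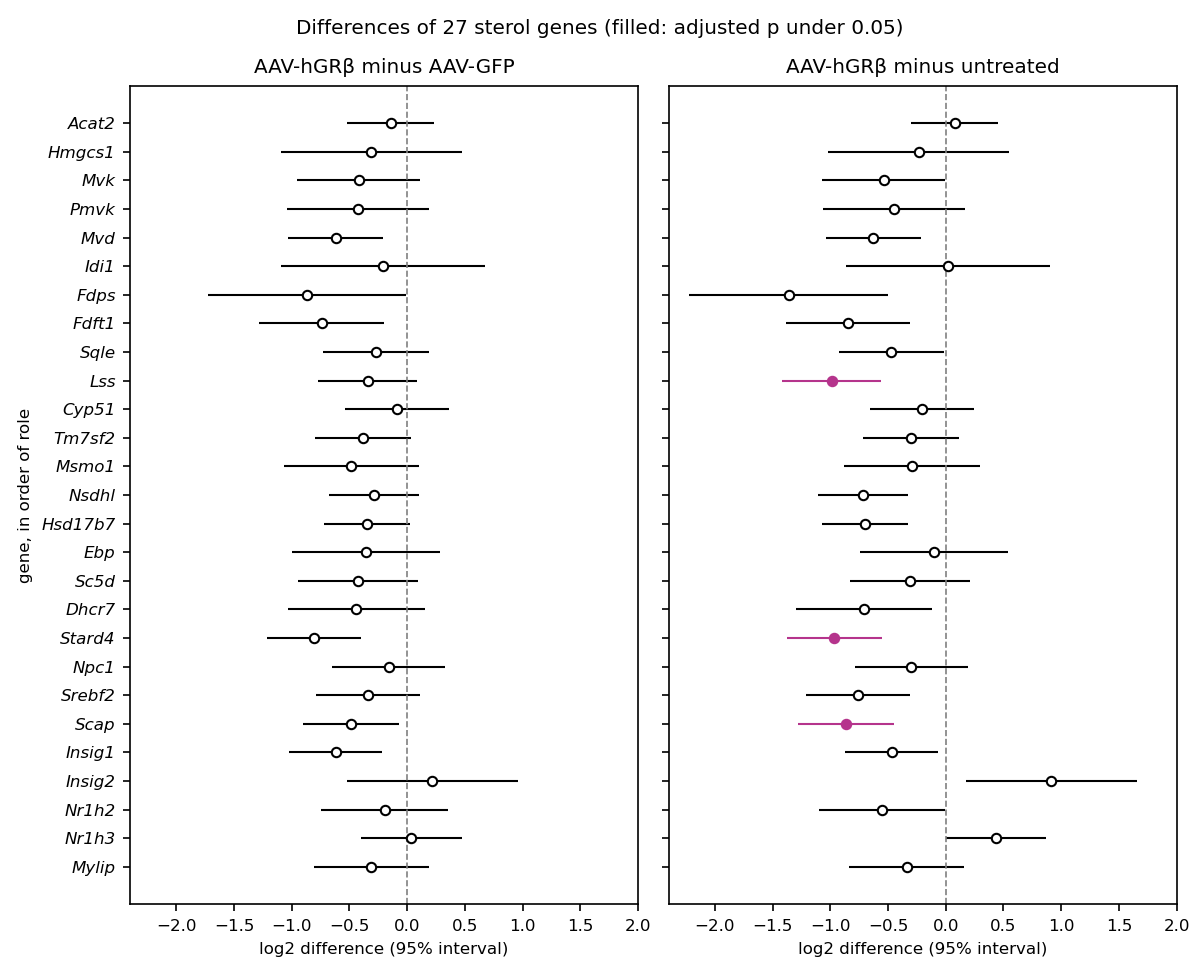
Log2 difference of each gene (points) with its 95% interval (bars) from limma over 9 arrays, for AAV-hGRβ minus AAV-GFP on the left and AAV-hGRβ minus untreated on the right; filled points have an adjusted p under 0.05. No point is filled on the left, and Lss, Stard4 and Scap are filled on the right.

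Of the 5 enzymes of the mevalonate steps, Acat2 and Hmgcs1 act before mevalonate is formed and Mvk, Pmvk and Mvd act after. The step that forms mevalonate is not among them. The 5 had a median of -0.42 for AAV-hGRβ minus AAV-GFP, with 5 of 5 below 0, and of -0.45 against untreated, with 4 of 5 below 0. Mvd, which decarboxylates mevalonate diphosphate, stood at 1.45, 1.88 and 1.35 in untreated liver, at 1.54, 1.43 and 1.69 with AAV-GFP and at 0.92, 0.86 and 1.02 with AAV-hGRβ. All 3 AAV-hGRβ arrays were below the other 6, and the AAV-GFP values lay within the untreated range. The difference was -0.62 ± 0.18 (SE) from AAV-GFP (adjusted p = 0.212) and -0.63 ± 0.18 from untreated (adjusted p = 0.0905). Mvk, mevalonate kinase, stood at 0.30, 0.32 and 0.28, then 0.69, 0.12 and -0.25, then -0.16, -0.40 and -0.16. Its AAV-hGRβ arrays were below every untreated array, but the AAV-GFP arrays spread over both. The difference from untreated was -0.54 (adjusted p = 0.189), and the second Mvk probe gave only -0.11. None of the remaining 3 had an unadjusted p under 0.05. Acat2, which joins acetyl-CoA units in the cytosol, averaged 5.83 ± 0.20, 6.05 ± 0.14 and 5.91 ± 0.07 (SD, n = 3 for each group, in the order untreated, AAV-GFP, AAV-hGRβ), with overlapping groups. Hmgcs1, the HMG-CoA synthase whose promoter holds the sterol response element letters, averaged 7.27 ± 0.41, 7.35 ± 0.65 and 7.04 ± 0.27, and its 3 groups overlapped. Its other probes gave -0.95 and 0.48 for AAV-hGRβ minus untreated, so its probes disagreed in direction. Pmvk, phosphomevalonate kinase, averaged 4.999 ± 0.55, 4.98 ± 0.17 and 4.55 ± 0.19, with all AAV-hGRβ arrays below all AAV-GFP arrays (difference -0.43, adjusted p = 0.621).

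Fdps and Idi1 carry the pathway from isoprene units to farnesyl diphosphate, and only Fdps was lower with AAV-hGRβ on every array of that group than on any other array. Fdps stood at 4.41, 5.75 and 5.12 in untreated liver, at 5.20, 4.62 and 3.99 with AAV-GFP and at 3.63, 3.67 and 3.90 with AAV-hGRβ. The AAV-hGRβ arrays were close together while the other 6 spread widely, and AAV-GFP overlapped untreated. The difference from AAV-GFP was -0.87 ± 0.38 (SE; adjusted p = 0.422) and that from untreated -1.36 ± 0.38; with scan day as a block the latter had an adjusted p of 0.028. Its second probe gave -0.44 and -0.75 for the same differences. Idi1, isopentenyl diphosphate isomerase, averaged 5.61 ± 0.57, 5.83 ± 0.56 and 5.62 ± 0.50 (SD, n = 3), with overlapping groups. The array's annotation, on build mm7, places both Idi1 probes on chromosome 2, whereas RefSeq places the gene on chromosome 13; which copy the probes read was not tested.

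The steps through squalene held a gene that fell. Squalene synthase, Fdft1, stood at 3.29, 3.44 and 2.78, then 3.43, 2.96 and 2.81, then 2.37, 2.12 and 2.48. Every AAV-hGRβ array was below the other 6, and the AAV-GFP and untreated arrays overlapped. The difference from AAV-GFP was -0.74 ± 0.24 (SE, adjusted p = 0.249) and that from untreated -0.85 ± 0.24 (adjusted p = 0.0827). The second Fdft1 probe, well above background on 8 arrays, gave only -0.14 and -0.20. Squalene epoxidase, Sqle, stood at 3.52, 3.49 and 3.29, then 3.08, 3.04 and 3.58, then 2.73, 3.00 and 3.15. Its AAV-hGRβ arrays were below the untreated ones and overlapped AAV-GFP, with differences of -0.47 from untreated (adjusted p = 0.184) and -0.27 from AAV-GFP. Lanosterol synthase, Lss, stood at 1.55, 1.96 and 1.41 in untreated liver, at 0.93, 0.93 and 1.12 with AAV-GFP and at 0.70, 0.78 and 0.47 with AAV-hGRβ. The 3 groups did not overlap at all, with untreated highest and AAV-hGRβ lowest. Lss fell by 0.99 ± 0.19 (SE) from untreated, 1.98-fold lower (adjusted p = 0.0348). AAV-GFP was itself -0.64 from untreated (adjusted p = 0.485), and AAV-hGRβ was -0.34 from AAV-GFP (adjusted p = 0.552). The 60-base Lss probe lies at chr10:76212419-76212478 on mm7, and no gene annotation of that build was used. The other Lss probes gave -0.38 and -0.16 for AAV-hGRβ minus untreated, and with the mean of all kept probes Lss was no longer called (-0.51, adjusted p = 0.130).

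The 8 enzymes that turn lanosterol into cholesterol were below 0 in 8 of 8 cases in both AAV-hGRβ comparisons, with medians of -0.37 from AAV-GFP and -0.31 from untreated, and none was called. Nsdhl, a dehydrogenase that helps remove the C4 methyl groups of sterols, stood at 2.87, 3.12 and 2.70, then 2.38, 2.57 and 2.45, then 2.00, 2.21 and 2.32. As with Lss, the groups did not overlap and AAV-GFP lay in between. The difference from untreated was -0.72 ± 0.17 (SE; adjusted p = 0.0598, and 0.0487 with scan day as a block), and its 3 other probes gave -0.35 to -0.97. Hsd17b7, the reductase of the same demethylation, stood at 3.50, 3.37 and 3.45, then 2.96, 3.31 and 3.00, then 2.78, 2.59 and 2.86. Its groups did not overlap either, and the difference from untreated was -0.70 ± 0.16 (adjusted p = 0.0549, and 0.0487 with scan day as a block). Dhcr7, which makes cholesterol in the last step, stood at 5.02, 5.01 and 4.89, then 4.35, 4.86 and 4.90, then 3.73, 4.68 and 4.38. The AAV-hGRβ arrays were below the untreated ones, led by replicate 1, and overlapped AAV-GFP; the difference from untreated was -0.71 (adjusted p = 0.143). The other 5 of these enzymes had AAV-hGRβ minus AAV-GFP differences between -0.48 for Msmo1, the C4 methyl oxidase, and -0.09 for Cyp51, the lanosterol demethylase. Of these 5, only Tm7sf2, a sterol reductase, had AAV-hGRβ arrays all below the AAV-GFP ones, with means of 6.48 ± 0.10 and 6.86 ± 0.16 (SD, n = 3; adjusted p = 0.478). Ebp, the sterol isomerase, averaged 8.10 ± 0.44, 8.35 ± 0.41 and 7.99 ± 0.22 and Sc5d, the C5 desaturase, 6.95 ± 0.34, 7.07 ± 0.26 and 6.64 ± 0.21, in the order untreated, AAV-GFP, AAV-hGRβ. The size depended on the probe for some of these genes: second probes of Sc5d and Cyp51 gave -1.19 and -0.76 for AAV-hGRβ minus untreated, where the representing probes gave -0.31 and -0.20.

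Stard4 had the smallest p of the 27 in both AAV-hGRβ comparisons. It stood at 3.90, 3.59 and 3.40 in untreated liver, at 3.46, 3.45 and 3.50 with AAV-GFP and at 2.77, 2.77 and 2.45 with AAV-hGRβ. The AAV-GFP arrays lay within the untreated range, and every AAV-hGRβ array was well below both. Stard4 fell by 0.96 ± 0.18 (SE) from untreated, 1.95-fold lower (adjusted p = 0.0317), and its difference from AAV-GFP was -0.81 ± 0.18 (adjusted p = 0.0952). Its 2 other probes gave -0.51 and -0.69 against untreated, and with the mean of all kept probes the adjusted p was 0.0675. Within scan day 1 the difference from AAV-GFP was -0.85 and within scan day 2 it was -0.73. Npc1, which exports cholesterol from lysosomes, averaged 1.33 ± 0.19, 1.19 ± 0.35 and 1.03 ± 0.19 (SD, n = 3), with overlapping groups.

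Of the 4 genes of SREBP and its sterol control, Scap fell against untreated liver. Srebf2, Insig1 and Insig2 were called in no comparison, and the 2 Insig differences from untreated had opposite signs with AAV-hGRβ (-0.47 and 0.91). Scap stood at 5.70, 5.87 and 5.83 in untreated liver, at 5.46, 5.47 and 5.33 with AAV-GFP and at 5.16, 5.05 and 4.60 with AAV-hGRβ. The 3 groups did not overlap, and AAV-GFP lay in between. Scap fell by 0.87 ± 0.18 (SE) from untreated, 1.82-fold lower (adjusted p = 0.0428); AAV-GFP was -0.38 from untreated (adjusted p = 0.485) and AAV-hGRβ was -0.49 from AAV-GFP (adjusted p = 0.327). Its only probe lies at chr9:110082822-110082881 on mm7. The call was also lost under median scaling (adjusted p = 0.0592), under quantile normalization (0.0576), and without AAV-GFP replicate 1 (0.0547) or replicate 3 (0.0506). Srebf2, which encodes the SREBP that drives sterol synthesis, stood at 3.51, 3.67 and 3.96, then 3.12, 3.27 and 3.48, then 3.22, 2.85 and 2.77. Both vector groups were below untreated and overlapped each other; the differences were -0.42 for AAV-GFP (adjusted p = 0.485) and -0.76 for AAV-hGRβ (adjusted p = 0.0703), each from untreated.

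Insig1, an anchor of SCAP and itself an SREBP target, stood at 2.67, 2.72 and 2.23 in untreated liver, at 2.74, 2.63 and 2.71 with AAV-GFP and at 1.93, 2.14 and 2.16 with AAV-hGRβ. All 3 AAV-hGRβ arrays were below the other 6. The difference from AAV-GFP was -0.62 ± 0.18 (SE; adjusted p = 0.200) and that from untreated -0.47 ± 0.18 (adjusted p = 0.151), and its other probe gave -0.42 and -0.37. Insig2, the second anchor, stood at 5.60, 4.58 and 4.92, then 5.19, 5.99 and 6.02, then 5.60, 6.19 and 6.05. AAV-GFP replicate 1 lay within the untreated range and the other 5 vector arrays above it, though AAV-hGRβ replicate 1 was level with untreated replicate 2 to 2 decimals. Insig2 was 0.70 higher with AAV-GFP (adjusted p = 0.485) and 0.91 ± 0.33 higher with AAV-hGRβ (adjusted p = 0.136) than in untreated liver, and 0.22 higher with AAV-hGRβ than with AAV-GFP; a second probe gave 0.94, 0.97 and 0.03. The difference between AAV-hGRβ and untreated was 1.37 within scan day 1 and 0.00 within scan day 2, where each group had 1 array.

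**Figure D3:**
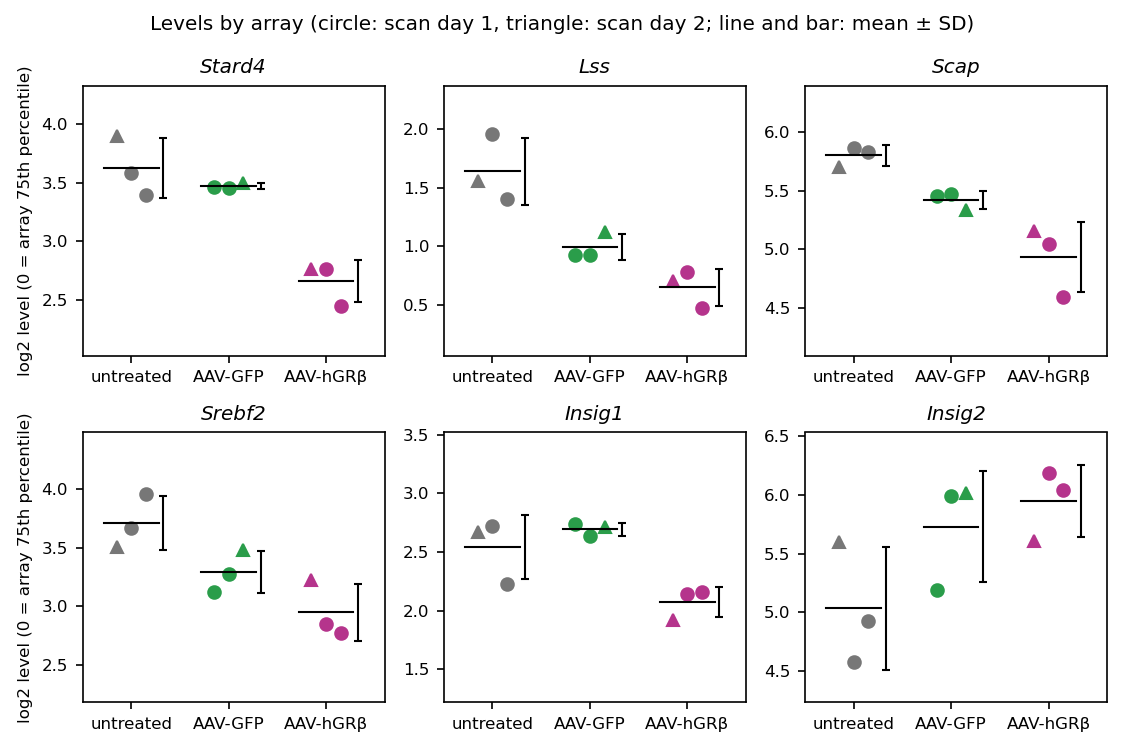
Log2 level of 6 genes on each array, by group; circles are scan day 1, triangles scan day 2, and lines and bars are the mean ± SD of 3 arrays. AAV-hGRβ arrays lie below all others for Stard4, Lss, Scap and Insig1, while Insig2 is highest in the vector groups.

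Neither liver X receptor gene passed the test, and the pair had opposite signs against untreated liver over all arrays, but not within scan day 2 with AAV-hGRβ. Nr1h2, LXRβ, stood at 1.01, 1.18 and 1.23, then 1.19, 0.83 and 0.34, then 0.90, 0.45 and 0.43. The AAV-hGRβ arrays were below the untreated ones and overlapped AAV-GFP, with differences of -0.55 from untreated (adjusted p = 0.192) and -0.20 from AAV-GFP. Nr1h3, LXRα, stood at 4.96, 4.40 and 4.46, then 5.003, 4.95 and 5.06, then 4.86, 5.18 and 5.08. Untreated replicate 2 lay with the vector arrays, and the other 2 untreated arrays lay below all of them; the difference from untreated was 0.40 for AAV-GFP (adjusted p = 0.485) and 0.44 for AAV-hGRβ (adjusted p = 0.195). For AAV-hGRβ minus untreated, Nr1h3 was at 0.70 within scan day 1 and at -0.098 within scan day 2. Nr1h2 was at -0.77 and -0.11, so both genes were below 0 on scan day 2, where each group had 1 array. Mylip, an LXR target that sends lipoprotein receptors for degradation, averaged 0.83 ± 0.31, 0.80 ± 0.30 and 0.49 ± 0.13 (SD, n = 3), with AAV-hGRβ below untreated on every array and a difference of -0.34 (adjusted p = 0.338).

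Over the whole set, the 3 AAV-hGRβ arrays were below all 6 other arrays in 9 members, against 3.80% of all genes: Mvd, Fdps, Fdft1, Lss, Nsdhl, Hsd17b7, Stard4, Scap and Insig1. The AAV-hGRβ mean was the lowest of the 3 groups in 23 members, against 31.3% of all genes, and the means stepped down from untreated through AAV-GFP to AAV-hGRβ in 17, against 22.3%. Each gene centred on its own mean, the median over the members was 0.32, 0.29 and -0.07 on the untreated arrays, -0.12, 0.11 and 0.18 with AAV-GFP, and -0.39, -0.30 and -0.24 with AAV-hGRβ. The AAV-hGRβ arrays were thus the 3 lowest, while untreated and AAV-GFP overlapped. Across probes rather than genes, 46 of the 50 member probes kept were below 0 for AAV-hGRβ minus AAV-GFP and 44 of 50 for AAV-hGRβ minus untreated. Many members had several kept probes, so these counts partly repeat the gene counts, and no share over all kept probes is given here.

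Within scan days, 19 members were below 0 on both days for AAV-hGRβ minus AAV-GFP, against 19.1% of all genes, and none was above 0 on both. The member median was -0.26 on day 1, with 2 arrays a group, and -0.45 on day 2, with 1 array a group, both of which lay on 1 slide. On day 1 the arrays of each group lay on a slide of their own, so slide and group cannot be told apart within that day. The difference moved by more than 1 between the days for Hmgcs1, Idi1, Msmo1, Dhcr7 and Nr1h2. Hmgcs1 was 0.12 on day 1 and -1.18 on day 2, Idi1 0.37 and -1.37, and Msmo1 -0.12 and -1.21. In these 3 genes AAV-GFP replicate 3 was the highest array of all 9, and AAV-hGRβ replicate 1 was the lowest of its group. Stard4, Insig1, Mvd, Pmvk and Lss were among the genes whose difference moved by less than 0.3 between the days. With scan day as a block, none of the 27 was called for AAV-hGRβ minus AAV-GFP, where 0.101% of all genes were called lower and 1.45% higher. Against untreated 6 were then called lower (Lss, Stard4, Scap, Fdps, Nsdhl and Hsd17b7), against 1.69% of all genes, and none higher, against 5.79%.

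**Figure D4:**
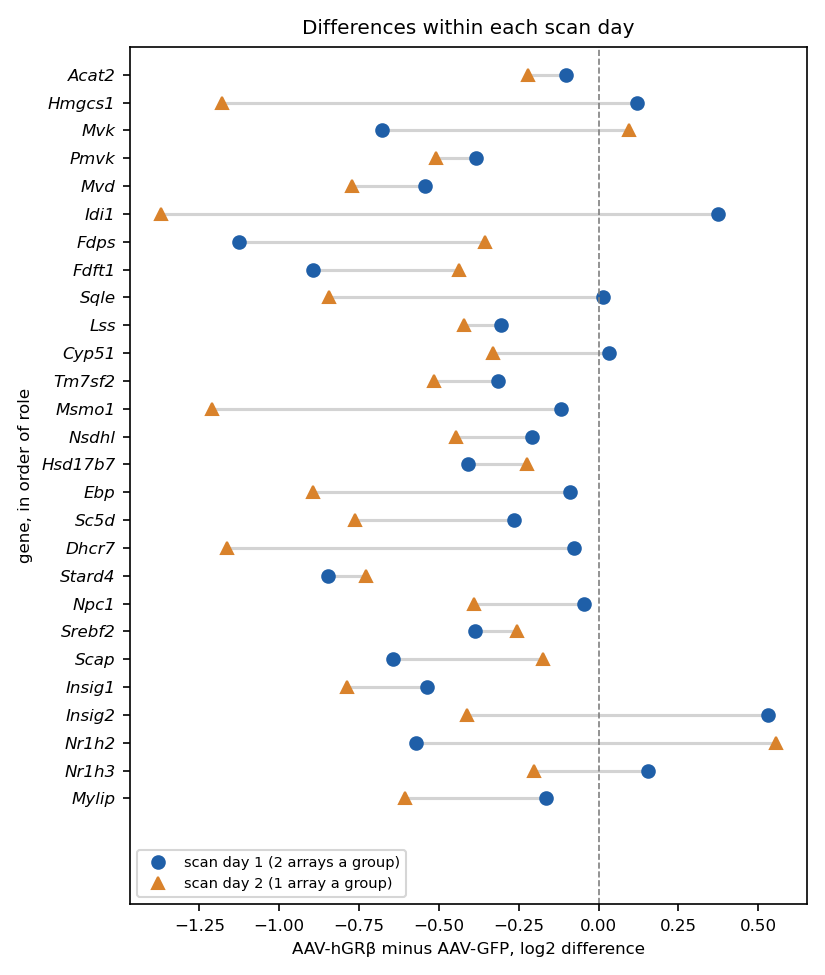
AAV-hGRβ minus AAV-GFP for each gene within scan day 1 (circles, 2 arrays a group) and scan day 2 (triangles, 1 array a group), as log2 differences. Of the 27 genes 19 have both points left of 0, and Hmgcs1 and Idi1 have the points farthest apart.

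Other genes of sterol metabolism were read from 5 companion lists. Among 12 genes of SREBP processing and its cofactors, 2 fell against untreated liver and none rose, against 0.792% and 2.59% of all genes: Srebf1, which encodes the SREBP of fatty acid synthesis, by 1.20 ± 0.21 (SE; adjusted p = 0.0242), and Rnf145, a sterol-responsive ubiquitin ligase, by 1.02 ± 0.22 (adjusted p = 0.0446). Among 12 genes that supply acetyl-CoA and electrons, Cyb5b, an electron carrier, fell by 0.82 ± 0.17 (adjusted p = 0.0440) and no other was called; 9 of the 12 were lower at an unadjusted p under 0.05, against 10.9% of all genes. Against AAV-GFP, 11 of these 12 were below 0, with a median of -0.30, as were 25 of the 27 members with a median of -0.35. Among 18 genes of sterol transport and esterification, Soat1, which esterifies cholesterol and is abundant in macrophages, rose by 1.61 ± 0.36 (adjusted p = 0.0497), and none fell, where 2.59% of all genes were called higher. None of 10 LXR targets and partners and none of 11 isoprenoid branch genes was called; the smallest p among the LXR genes was that of Lpcat3, a phospholipid remodelling enzyme (-1.25, adjusted p = 0.0665), and among the isoprenoid genes that of Ggps1, geranylgeranyl diphosphate synthase (1.23, adjusted p = 0.0798). Against AAV-GFP no gene of the 5 lists was called. Srebf1 was at -0.87 (adjusted p = 0.119), Soat1 at 1.25 (adjusted p = 0.200) and Abcg1, a sterol exporter, at 0.69 (adjusted p = 0.195). Rnf145 was only at -0.19 from AAV-GFP (adjusted p = 0.824), and AAV-GFP was itself -0.83 from untreated (adjusted p = 0.485). For Cyb5b these differences were -0.43 (adjusted p = 0.368) and -0.39 (adjusted p = 0.485).

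Markers of T and NK cells and interferon-stimulated genes were higher in the AAV-hGRβ group, and most hepatocyte markers were below 0 against AAV-GFP. All 10 hepatocyte markers analysed were well above background on all 9 arrays. None was called against AAV-GFP, but 9 of 10 were below 0, against 46.7% of all genes. Their median was -0.24 (-0.11 on scan day 1 and -0.48 on scan day 2). In 4 of them all AAV-hGRβ arrays lay below all AAV-GFP arrays, against 6.35% of all genes. Against untreated 1, the glucocorticoid-induced aminotransferase Tat, fell (-1.28, adjusted p = 0.0438; median of the 10, 0.03), where 0.792% of all genes were called lower. Of 12 T and NK cell markers, 4 rose against AAV-GFP (Cd8a, Gzma, Gzmb and Nkg7), where 0.834% of all genes were called higher. Cd8a was well above background on 4 of 9 arrays and Ncr1 on 5, so both passed the filter through 1 group only; Gzma was so on 8 arrays, and Gzmb and Nkg7 on 9. The summed linear level of the 12 was 2.54 to 2.98 on the untreated and AAV-GFP arrays and 5.78 to 13.2 with AAV-hGRβ. Of 12 Kupffer cell and macrophage markers 1 rose (median 0.58; summed level 105 to 187 against 254 to 364), of 10 endothelial markers none was called (median -0.23), of 5 cholangiocyte and 8 stellate cell markers none was called (medians 0.34 and -0.24), and of 12 interferon-stimulated genes 10 rose (median 2.26). The part of these cells, or of hepatocyte RNA as a whole, in the sterol gene differences was not tested.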

How the data were processed

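Per the labels' protocols, Cy3-labelled RNA was made from 500 ng of total liver RNA; per the submitters' processing notes, spots were read with Agilent Feature Extraction 9.5. The deposited files hold 1 intensity per spot on a linear scale, background-subtracted and not scaled between arrays, per the file headers, with raw intensities and spot flags beside it. Control and outlier spots were left out, spots of a probe averaged, log2 values taken and each array's 75th percentile subtracted. A probe was kept where every array of 1 or more groups had it well above background (24273 probes), and the brightest kept probe represented a gene. Groups followed the labels. limma 3.58.1 in R 4.3.3 fitted group means over 9 arrays (6 residual degrees of freedom), with Benjamini-Hochberg adjustment over 16796 genes, and was tested on simulated data. The number of arrays limits the precision. Alternatives covered scaling, background correction, probe filter and choice, scan day, slide, replicate number, deposited series values and each array left out.

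The 27 members and the lists were chosen with earlier results of these data known. Values on every array are given for members with an unadjusted p under 0.05 in any comparison and for Srebf2, Scap, both Insig and both Nr1h genes; companion genes were named if called, or else by smallest p. Promoter windows came from RefSeq.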

Additional observations from a re-analysis of the deposited data

How the results depend on the processing

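Under 22 tested alternatives no member was called in AAV-hGRβ against AAV-GFP or in AAV-GFP against untreated. Leaving out single arrays gave 0 to 7 called members for AAV-hGRβ against untreated, medians of -0.54 to -0.38 there, -0.47 to -0.30 against AAV-GFP and -0.25 to 0.027 (without untreated replicate 3, reversed) for AAV-GFP against untreated, and 41 to 162, 94 to 2150 and 0 to 1 called genes for AAV-hGRβ against AAV-GFP, against untreated, and AAV-GFP against untreated, where the reported counts were 153, 568 and 0. Of the 3 called members against untreated, 0 remained under normexp correction, with no filter on dim probes, with slide as a random block, with the replicate block and with only the groups compared. With probes well above background on all arrays 5 were called, all lower, where 261 of 14335 genes were called lower and 439 higher. Scan day as a block gave 6, all lower, where 1.69% of all genes were called lower and 5.79% higher. On scan day 1 alone 8 were called (6 lower, and Insig2 and Nr1h3 higher), where 1825 of 16796 genes were called lower and 2974 higher. Lss, Stard4 and Scap were below 0 against untreated in all 23 alternatives. Several of these, such as the deposited series values and scan day as a block, left the differences unchanged and so could not turn a sign. For AAV-hGRβ against AAV-GFP the genes called numbered 14 under normexp correction, 30 without the filter, 260 with scan day as a block, 3 on scan day 1 alone, 75 with slide as a random block, 2 with the replicate block and 77 with only the groups compared. Against untreated the same settings gave 45, 85, 1256, 4799, 58, 1 and 324. For AAV-GFP against untreated, median scaling called 4 genes, and quantile normalization, scan day as a block and scan day 1 alone called 1 each. Normexp correction reversed the member medians to 0.27 and 0.020, and turned the sign of 18 and 10 members against AAV-GFP and untreated; the cause was not tested, but with bright local backgrounds (55 to 1641 spots an array) replaced no member's sign turned. Apart from normexp, at most 4 and 3 members turned in any alternative. Median scaling moved the medians to -0.71 and -0.82 with the median of all genes at -0.33 and -0.25. It subtracts a different constant from each array and so shifts all genes nearly alike. The members' distance from all genes, -0.38 and -0.57, could therefore hardly change under it. On scan day 2 alone the median against untreated was -0.75. The samples share only a replicate number (correlations of deviations of 0.012, 0.24 and 0.0064 between same-numbered AAV-GFP and AAV-hGRβ arrays), and not every array correlated best with its own number, so the replicate block tests no known pairing. With 3 arrays a group, the number of arrays limits what could be called.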

Other observations

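The lowest of the 9 arrays was an AAV-hGRβ array for 21 of the 27 members, replicate 1 for 11 and replicates 2 and 3 for 5 each, against 7.32%, 8.53% and 15.3% of all genes. The highest array was untreated replicate 3 for 8 members, untreated replicate 2 for 6 and AAV-GFP replicate 3 for 6, against 9.86%, 5.80% and 17.3% of all genes; untreated replicate 3 was also the lowest for 4, against 16.8%.

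The 2 Dhcr7 probes gave -0.44 and -0.44 for AAV-hGRβ minus AAV-GFP and -0.71 and -0.71 against untreated. Dim probes of Npc1, Srebf2, Insig2 and Mylip, 1 for each gene, were not kept by the filter and carry no value here.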
